A study of Mus musculus with 10 samples.

Results

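The subplate neuron genes described here are Nr4a2, Nxph4, Cplx3, Moxd1 and Hs3st4, chosen by symbol as genes associated with subplate neurons. These are 5 of the 22373 genes in the table, and 4 of the 5 had enough footprints to be tested. Ribosome profiling (Ribo-seq), which sequences the mRNA fragments protected by ribosomes (footprints), was done on neocortex of wild-type CD-1 mice. There were 10 libraries, 2 at each of 5 stages: embryonic days E12.5, E14, E15.5 and E17, and P0, the day of birth. For each library many brains of both sexes were pooled, and the spread between replicates is the spread between pools. No group carried an allele or a treatment. The stages differ by label in age, and the libraries also differ in markers of tissue around the neocortex, as given with the marker lists.

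Subplate neurons are among the earliest-born neurons of the neocortex and lie beneath the cortical plate. They receive early thalamic input and guide growing axons, and part of them persist in the deepest cortical layer. Nr4a2 encodes an orphan nuclear receptor that acts as a transcription factor. Nxph4 encodes a neurexophilin, a secreted glycoprotein of a family that binds neurexins. Cplx3 encodes a complexin, which binds the SNARE complex and regulates synaptic vesicle release. Hs3st4 encodes an enzyme that adds 3-O-sulfate to heparan sulfate, and Moxd1 encodes a relative of dopamine beta-hydroxylase. None of these genes is restricted to the subplate, and the libraries held whole neocortex. The footprints of subplate neurons cannot be told apart from those of other cells, and fewer cells of a type cannot be told apart from fewer footprints per cell.

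The promoter sequences of Nr4a2, Hs3st4 and Cplx3 are shown because the footprints of these 3 genes rose over the time course, each with its own timing. Each sequence is 300 bases, from 250 before to 50 after a RefSeq transcript start on GRCm38.p6, written 5′ to 3′ on the gene's strand, with matches to the motifs in capitals. The Nr4a2 window is at chr2:57123954-57124253 on the minus strand, the Hs3st4 window at chr7:123982578-123982877 on the plus strand, and the Cplx3 window at chr9:57606232-57606531 on the minus strand. The table of promoters held 4 of the 5 genes, and Nxph4 was not among them.
Nr4a2: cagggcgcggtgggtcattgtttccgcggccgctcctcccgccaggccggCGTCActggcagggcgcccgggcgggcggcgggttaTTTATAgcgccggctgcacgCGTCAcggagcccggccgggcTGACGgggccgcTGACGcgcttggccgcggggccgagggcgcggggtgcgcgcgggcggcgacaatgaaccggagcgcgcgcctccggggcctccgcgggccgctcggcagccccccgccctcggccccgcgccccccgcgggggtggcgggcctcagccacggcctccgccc
Hs3st4: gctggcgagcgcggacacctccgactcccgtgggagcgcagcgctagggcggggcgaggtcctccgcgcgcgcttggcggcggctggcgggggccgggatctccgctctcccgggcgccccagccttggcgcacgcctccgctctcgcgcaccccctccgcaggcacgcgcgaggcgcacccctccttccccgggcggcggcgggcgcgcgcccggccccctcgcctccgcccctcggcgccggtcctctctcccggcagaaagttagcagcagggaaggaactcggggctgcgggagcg
Cplx3: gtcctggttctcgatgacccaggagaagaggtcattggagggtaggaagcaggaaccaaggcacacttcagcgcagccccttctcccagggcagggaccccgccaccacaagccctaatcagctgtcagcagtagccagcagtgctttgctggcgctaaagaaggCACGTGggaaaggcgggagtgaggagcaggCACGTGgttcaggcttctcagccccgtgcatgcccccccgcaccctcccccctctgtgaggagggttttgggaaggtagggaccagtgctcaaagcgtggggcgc

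The Nr4a2 and Hs3st4 promoters were rich in G and C, at 81.7% and 79.3% of bases, with 52 and 47 CpG dinucleotides, against a median of 52.7% G and C over 32851 windows. The Cplx3 promoter held 62.7% and 11 CpG dinucleotides. Motifs were searched on both strands and were chosen with these sequences known. The letters TGACG, the half-site of the cAMP response element, stood at 4 places in the Nr4a2 window, the first bases of the matches lying 200, 144, 123 and 111 bases before the start. The same letters were present at least once in 20.8% of all windows. Shares of windows here count those with at least 1 match and are not matched for G and C content. TATAAA was matched once in the Nr4a2 window, on the opposite strand (13.6% of windows). The E-box CACGTG stood at 2 places in the Cplx3 window, 85 and 55 bases before the start, and in 7.15% of all windows. None of these motifs was found in the Hs3st4 or Moxd1 window. The full cAMP response element TGACGTCA, which contains the half-site (1.79% of windows), and the NR4A binding motif AAAGGTCA (1.51%) were found in none of the 4 windows. A match is a description of the letters, not of a bound site.

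Levels are given in CPM, footprint counts scaled to a common library size, with library sizes adjusted by the trimmed mean of M values (TMM). They describe each gene over time and are not compared between genes, since they are not scaled by length. Total counts ranged from 7544404 in P0 replicate 1 to 36129988. The SD of the log2 ratio of the replicates over 4559 well-counted genes was 0.540 at P0 and 0.128 to 0.221 at the other stages, so that values at P0 carry the most error. A gene was called where the adjusted p was under 0.05 and the higher level at least 25% above the lower, by limma-voom with Benjamini-Hochberg adjustment over the 13484 genes tested.

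From E12.5 to P0, 3 of the 4 tested genes rose and 1 fell. Nr4a2, Cplx3 and Hs3st4 ended higher and Nxph4 ended lower. Of all genes tested, 30.1% were called higher and 32% lower in this comparison, so that a change in either direction was common. The moderated F test over the 5 stages called 4 of the 4 genes, and 63.8% of all genes. The filter kept genes with at least 32 footprints over the libraries of at least 1 stage. Cplx3 passed it only through P0, with 281, and Hs3st4 only through E15.5, E17 and P0, with 104, 131 and 97. Both could be tested only because they were high late. The counts of rises and of the F test are thus no support for a rise of the members as a set. The F test's adjusted p was 2.41e-06 for Nr4a2, 1.02e-05 for Nxph4, 0.00408 for Cplx3 and 0.00735 for Hs3st4. Without E12.5 replicate 2, that of Hs3st4 was 0.0816.

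**Figure D1:**
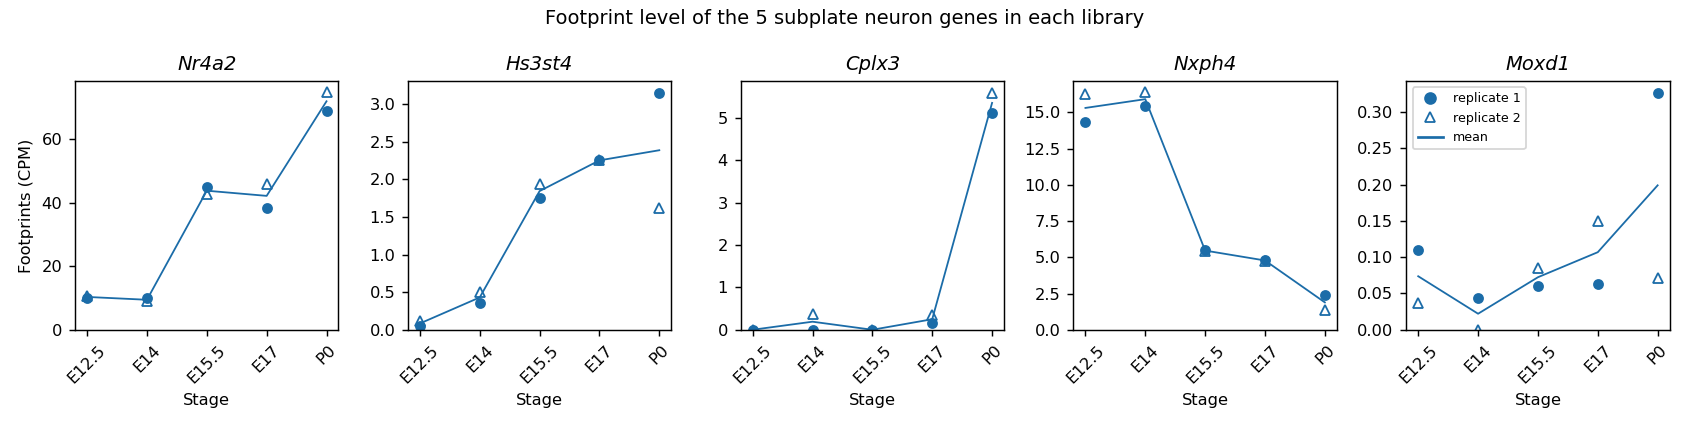
Footprint level in CPM (y axis, from 0, a separate scale for each gene) of the 5 genes in each of the 10 libraries by stage (x axis), with filled circles for replicate 1, open triangles for replicate 2 and a line through the stage means. Nr4a2 stepped up at E15.5 and at P0, Hs3st4 at E15.5 and Cplx3 at P0, Nxph4 stepped down at E15.5 and at P0, and Moxd1 stayed at or under 0.326 CPM.

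Members were called at 2 of the 4 steps between adjacent stages, and a step that was not called may still hold a change. At E14 vs E12.5, 0 of 4 genes were called, against 0.638% of all genes in either direction. DESeq2, which gave no adjusted p for Cplx3 and Hs3st4, and edgeR called 0 there too, and 0 of the 4 genes had an unadjusted p under 0.05. At E15.5 vs E14, 2 genes were called higher (16.5% of all genes) and 1 lower (19.6%). At E17 vs E15.5, 0 of 4 were called, against 9.04% of all genes in either direction. DESeq2, with no adjusted p for Cplx3, and edgeR also called 0, and 1 of the 4, Cplx3, had an unadjusted p under 0.05. At P0 vs E17, 2 were called higher (9.46%) and 1 lower (11.1%). Against E12.5, 2 were higher and 1 lower both at E15.5 (22.2% and 24% of all genes) and at E17 (26.9% and 27.8%). These comparisons share their E12.5 libraries.

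**Figure D2:**
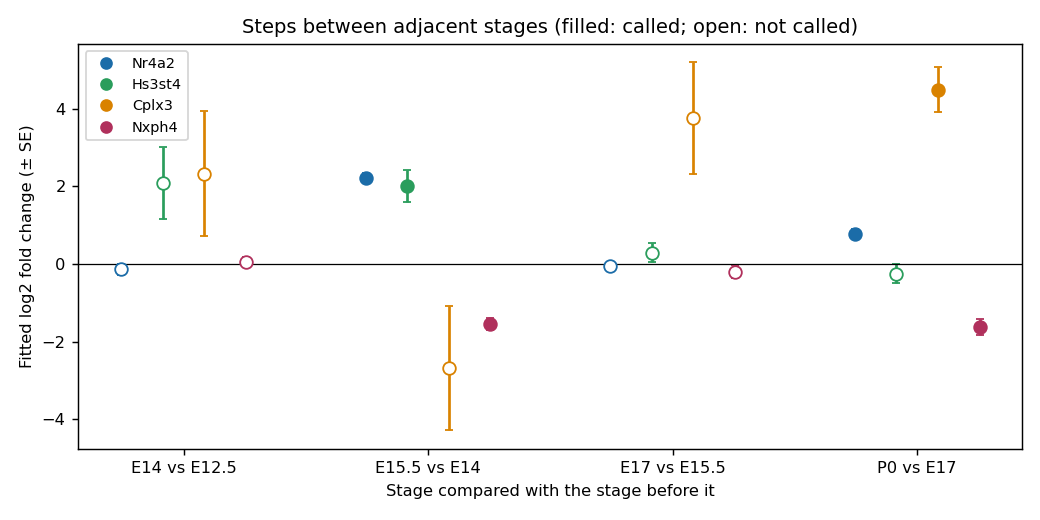
Fitted log2 fold change with its standard error (y axis) of the 4 tested genes for each stage against the stage before it (x axis), filled where called and open where not. The called steps were E15.5 vs E14 for Nr4a2, Hs3st4 and Nxph4, and P0 vs E17 for Nr4a2, Cplx3 and Nxph4, and the wide bars of Cplx3 go with stages at 0 to 14 counts.

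Nr4a2 (ENSMUSG00000026826) was the most deeply counted of the 5, with 9683 footprints in all. Its level was 10.01 and 10.7 CPM in the E12.5 libraries, 9.85 and 9.03 in those of E14, 44.9 and 42.7 in those of E15.5, 38.4 and 45.9 in those of E17, and 68.8 and 75.0 in those of P0. The stages thus formed 3 tiers, with E12.5 and E14 low, E15.5 and E17 in the middle and P0 high, and no library of one tier overlapped another tier. Nr4a2 rose 4.65-fold at E15.5 vs E14 (log2 2.22, SE 0.12, limma-voom adjusted p = 4.55e-05). It rose again at P0 vs E17, by 0.78 on the log2 scale (SE 0.11, limma-voom adjusted p = 0.00372). From E12.5 to P0 the log2 fold change was 2.80 (SE 0.12, limma-voom adjusted p = 9.29e-07). Leaving out P0 replicate 1 gave 2.86, and leaving out P0 replicate 2 gave 2.76. The steps at E14 vs E12.5 (log2 -0.14, limma-voom adjusted p = 0.687) and at E17 vs E15.5 (-0.06, 0.80) were not called. The libraries of the first pair of stages did not overlap, and those of the second did.

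Nxph4 (ENSMUSG00000040258) ran the other way, with 2232 footprints in all. Its level was 14.4 and 16.3 CPM in the libraries of E12.5, 15.4 and 16.4 in those of E14, 5.48 and 5.45 in those of E15.5, 4.80 and 4.77 in those of E17, and 2.39 and 1.38 in those of P0. All 4 libraries of E12.5 and E14 lay above the other 6, and both P0 libraries lay below the rest. The step at E15.5 vs E14 was -1.54 on the log2 scale (SE 0.15, limma-voom adjusted p = 0.000217), or 2.91-fold lower. Nxph4 fell again at P0 vs E17, by 1.61 on the log2 scale (SE 0.21, limma-voom adjusted p = 0.00249). Leaving out P0 replicate 1 gave -1.78, and leaving out P0 replicate 2 gave -0.94 (limma-voom adjusted p = 0.0221), so that the size of this step rests on the deeper P0 library. From E12.5 to P0 the log2 fold change was -3.29 (SE 0.20, limma-voom adjusted p = 3.29e-06), and -2.62 without P0 replicate 2. The steps at E14 vs E12.5 (log2 0.05, limma-voom adjusted p = 0.892) and at E17 vs E15.5 (-0.19, 0.523) were not called. Both E17 libraries lay below both E15.5 libraries.

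Hs3st4 (ENSMUSG00000078591) was counted 360 times in all, so that its early levels rest on few footprints. There were 1 and 3 counts in the E12.5 libraries, 8 and 16 in those of E14, 58 and 46 in those of E15.5, 71 and 60 in those of E17, and 29 and 68 in those of P0. In CPM, the libraries held 0.055 and 0.112 for E12.5, 0.353 and 0.507 for E14, 1.75 and 1.94 for E15.5, 2.25 and 2.25 for E17, and 3.15 and 1.62 for P0. The first 4 stages followed one another without overlap, and the P0 libraries spanned the range of E15.5 and E17. Hs3st4 rose at E15.5 vs E14 by 2.01 on the log2 scale (SE 0.41, limma-voom adjusted p = 0.00634). Without E14 replicate 2 this call was lost (adjusted p = 0.0581 by limma-voom). E15.5 held 20.5 times the pooled CPM of E12.5, with a 95% exact interval of 7.78 to 76.8 that covers counting error only. The steps at E14 vs E12.5 (log2 2.09), E17 vs E15.5 (0.30) and P0 vs E17 (-0.25) were not called, at limma-voom adjusted p = 0.321, 0.505 and 0.494. The first of these was called without P0 replicate 2 (limma-voom adjusted p = 0.0391). Its ratio of pooled CPM was 4.97, with an exact 95% interval of 1.71 to 19.7 for counting error, and its libraries did not overlap.

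Cplx3 (ENSMUSG00000039714) was the latest of the genes to rise, with 281 of its 307 footprints at P0. It had 0 counts in both E12.5 libraries, 0 and 12 in those of E14, 0 in both of E15.5, 5 and 9 in those of E17, and 47 and 234 in those of P0. The P0 libraries held 5.11 and 5.58 CPM, against 0.159 and 0.338 at E17. The 12 counts at E14 were all in replicate 2, at 0.380 CPM. Cplx3 rose at P0 vs E17 by 4.50 on the log2 scale (SE 0.58, limma-voom adjusted p = 0.00251). The ratio of the pooled levels was 22.8, with an exact 95% interval of 13.4 to 42.3 for counting error. DESeq2 gave a like size, 4.47 on the log2 scale, but no call (adjusted p = 0.168). Against E12.5, P0 was at least 82.3-fold higher, taking 3 counts over the 2 libraries as the limit that a count of 0 allows (limma-voom adjusted p = 0.00101). At E15.5 this limit was 0.0528 CPM, so that a lower level was not detectable. E17 was at least 4.57-fold higher than E15.5 by the same limit, with no overlap, but was not called (limma-voom adjusted p = 0.145).

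Moxd1 (ENSMUSG00000020000) was not measured well enough to be compared. It had 20 counts over the 10 libraries: 2 and 1 in those of E12.5, 1 and 0 in those of E14, 2 and 2 in those of E15.5, 2 and 4 in those of E17, and 3 and 3 in those of P0. No library had more than 4 counts, and the filter on low counts left it out. The ratio of pooled CPM of P0 to E12.5 was 1.76, with an exact 95% interval of 0.375 to 10.9. With no filter, 0 of 7 comparisons were called and the F test's adjusted p was 0.403 by limma-voom over 19369 genes. A change of Moxd1 was thus not detectable at this depth.

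The calls at P0 vs E17 depended on which stages shared the estimate of the spread. With only the E15.5, E17 and P0 libraries, Nr4a2, Nxph4 and Cplx3 were called, as were 1441 genes in all. With only the 4 libraries of these stages in the fit, 0 of 4 genes and 0 of all genes were called, and Nr4a2, Nxph4 and Cplx3 had log2 fold changes of 0.79, -1.59 and 4.50 at limma-voom adjusted p = 0.0960, 0.0883 and 0.0865. RefSeq lists 1 gene that overlaps Nr4a2 and 2 that overlap Hs3st4, and the Hs3st4 start used for the promoter lies downstream of the first base listed for the gene. The study's methods describe footprint abundances per protein-coding transcript, and do not state whether strand was used or whether these whole-number counts come from that step, so that the share of these neighbours in the counts was not tested.

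The profiles of the members differed from one another. Likeness was the root mean square difference of log2 stage means, each gene centred on its own mean over the 5 stages. Before taking logs, 2 counts were added in every library, which shrinks the changes of genes with few counts, here Hs3st4, Cplx3 and Moxd1. The closest pair was Nr4a2 and Hs3st4, at 0.628. Of 9215 genes whose mean count was 100 or more, 7.81% were closer to Nr4a2 than Hs3st4 was. The farthest pair was Nxph4 and Cplx3, at 3.20. The genes most like Nr4a2 by this measure were Nrip1 (0.149), a nuclear receptor corepressor, and Nt5dc3 (0.157). Those most like Nxph4 were Cenpa (0.0779), the centromeric histone H3 variant, and Zic1 (0.0797), a zinc finger transcription factor. Hs3st4 was nearest to Dlx1 (0.148), a homeobox gene of the interneuron lineage, and Mpped1 (0.169). Its distances depend on the 2 counts added, since its E12.5 libraries held 1 and 3 counts. From E12.5 to P0, Hs3st4 went from 0.0836 to 2.39 CPM and Dlx1 from 1.54 to 16.8. The profile of Cplx3 had no close match among the genes whose mean count was 100 or more, with Cobl (1.07), an actin nucleator, and Ppm1h (1.12) nearest. Before P0 the libraries held 0 to 12 counts of Cplx3. Its distances, that to Nxph4 among them, thus depend on the 2 counts added. Aldh5a1 (0.130) and Gspt2 (0.177) were nearest to Moxd1, whose profile rests on 20 counts. These are descriptions over 5 stage means and carry no test.

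The close relatives of the members were compared next. Nr4a3, the paralogue of Nr4a2, was at 2.33 ± 0.25 CPM at E12.5 and 15.6 ± 0.52 at P0 (SD, n = 2). It rose at E15.5 vs E14 (log2 1.47, limma-voom adjusted p = 0.000238) and at P0 vs E17 (0.53, 0.0285), the same steps as Nr4a2. Nr4a1 had 62 counts in all and was not tested. NR4A receptors can pair with retinoid X receptors, of which Rxra fell from E12.5 to P0 (log2 -0.98) and Rxrg (5.53) and Rxrb (0.54) rose. Rxrg had 0 and 1 counts in the E12.5 libraries and 20 and 72 in those of P0, the only stage through which it passed the filter. The call of Rxrb was lost without either E12.5 library (log2 0.53 and 0.56) and without P0 replicate 1 (0.32). It was also lost with only the E12.5 and P0 libraries in the fit (0.58, limma-voom adjusted p = 0.109). The F test did not call Rxrb (adjusted p = 0.166). Of the 4 genes of this list that were tested, 3 were higher and 1 lower (30.1% and 32% of all genes). The median log2 fold change of the list was 1.63, against -0.01 over all genes. That median was 0.89 without P0 replicate 2, 0.55 over those whose mean count was 100 or more, and 2.16 with total counts.

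Nxph4 differed in direction from the other neurexophilins, each called on its own. Nxph1 went from 2.71 ± 0.29 CPM at E12.5 to 10.8 ± 3.1 at P0, Nxph2 from 0.548 ± 0.23 to 2.04 ± 0.044, and Nxph3 from 1.58 ± 0.14 to 8.28 ± 2.9 (SD, n = 2). At E15.5 vs E14, the step at which Nxph4 fell, they rose by log2 fold changes of 1.08, 1.32 and 1.28 (limma-voom adjusted p = 0.00664, 0.00806 and 0.00312). The difference between the genes was not itself tested. Nrxn2 and Nrxn3, which encode neurexins, presynaptic adhesion proteins, rose as well from E12.5 to P0, by log2 fold changes of 2.16 and 2.10.

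**Figure D3:**
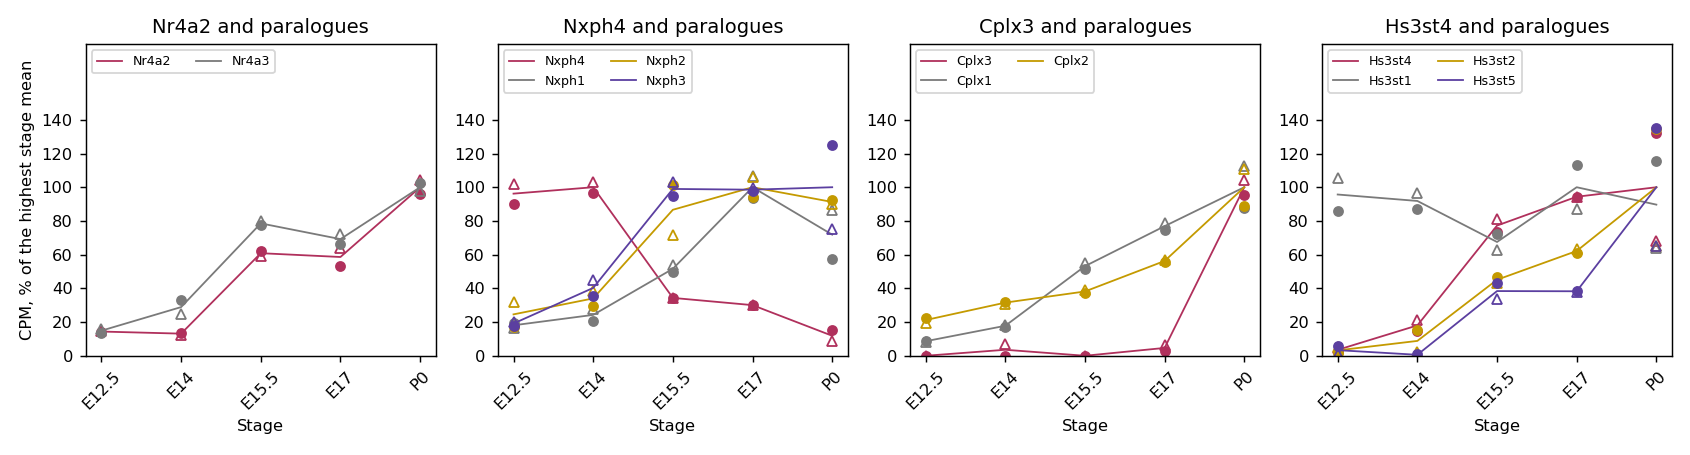
CPM as a percentage of each gene's highest stage mean (y axis) by stage (x axis) for 4 members and their tested paralogues, with a filled circle for replicate 1, an open triangle for replicate 2 and a line through the means. Nxph4 goes down where Nxph1, Nxph2 and Nxph3 go up, and Cplx3 stays near 0 through E17 while Cplx1 and Cplx2 were called higher before then.

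Footprints of Cplx1 and Cplx2 were present at every stage. Cplx1 was at 6.75 ± 0.18 CPM at E12.5, 41.7 ± 2.2 at E15.5 and 78.4 ± 14 at P0, and Cplx2 at 30.2 ± 3.0, 54.5 ± 2.1 and 143 ± 22 (SD, n = 2). Cplx1 was called higher at the first 3 steps, by log2 fold changes of 1.05, 1.57 and 0.53 (limma-voom adjusted p = 0.0389, 0.000139 and 0.0386). Its value at P0 vs E17, the step of Cplx3, was 0.38 and was not called (limma-voom adjusted p = 0.0644). Cplx2 went from 80.3 ± 1.5 CPM at E17 to 143 ± 22 at P0 (SD, n = 2). Of 12 tested complexin and SNARE genes, 8 were called higher at this step (9.46% of all genes) and 0 lower (11.1%). Cplx4 had 2 counts in all. Of the 12 tested genes of this list, 12 were higher at P0 than at E12.5 (30.1% of all genes), with a median of 2.61. Among them were Stx1a, the plasma membrane syntaxin (log2 3.55), and Snap25 (3.54).

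Of the 4 tested 3-O-sulfotransferases, 3 rose at E15.5 vs E14, Hs3st4 among them, against 16.5% of all genes. The 3 were Hs3st2, Hs3st4 and Hs3st5, with 13 and 3, 8 and 16, and 1 and 0 counts in the E14 libraries. They passed the filter on low counts only through stages from E15.5 on. Since they could be tested only because they were higher later, the 3 of 4 is no support for a pattern of the family. Hs3st2 went from 0.121 ± 0.093 to 3.80 ± 1.9 CPM and Hs3st5 from 0.129 ± 0.13 to 3.86 ± 1.9 from E12.5 to P0 (SD, n = 2), and both were called higher at the step of Hs3st4, E15.5 vs E14 (limma-voom adjusted p = 0.0189 and 0.0253). The P0 vs E12.5 call of Hs3st2 was lost without E12.5 replicate 2 (limma-voom adjusted p = 0.0687). Hs3st1 was not called, with a log2 fold change of -0.27 from E12.5 to P0 that was 0.25 when libraries were scaled by total counts. Hs3st3a1, Hs3st3b1 and Hs3st6 were too low to test. Of 16 tested genes of heparan sulfate synthesis and editing, 5 were higher and 7 lower at P0 than at E12.5 (30.1% and 32% of all genes). The median was -0.31, and 0.21 with total counts. Those that rose included Hs6st1 and Hs6st2, which add 6-O-sulfate (log2 0.82 and 0.74). Those that fell included Sulf1, which removes it (-3.43), Hs2st1 (-1.19) and the chain polymerase gene Ext2 (-0.98). Ext2 was not called with total counts, without P0 replicate 2 or with only the E12.5 and P0 libraries in the fit. The E14 libraries held 13.2 ± 1.7 CPM of Sulf1 and the E15.5 libraries 0.386 ± 0.29. Sulf2, named after its values were seen, was at 7.92 ± 0.78 CPM at E12.5, 1.21 ± 0.16 at E15.5 and 5.98 ± 1.1 at P0. Meningeal and choroid plexus markers also fell at E15.5 vs E14, as given with the marker lists, and their part in the fall of Sulf1 was not tested.

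Among the relatives of Moxd1, Pam, which amidates peptides, fell from 15.7 ± 0.46 CPM at E12.5 to 5.00 ± 0.77 at P0 (SD, n = 2, log2 -1.72, limma-voom adjusted p = 4.92e-05). Dbh had 5 counts in all and Moxd2 had 0.

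Other genes linked to the subplate did not move as one. Of 12 such genes, 5 were higher and 2 lower at P0 than at E12.5, against 30.1% and 32% of all genes. All genes thus went in both directions as well. The median log2 fold change of the 12 was 0.47, and -0.24 over those whose mean count was 100 or more. It was 0.83 without P0 replicate 2 and 0.999 with total counts. Kcnab1, a potassium channel subunit gene, had 2 to 3 counts per library at E12.5 and 37 and 291 at P0. It rose at E15.5 vs E14 (log2 2.90, limma-voom adjusted p = 0.00267), the step of Nr4a2 and Hs3st4. Hcrtr2, an orexin receptor gene, and Cdh10, a cadherin gene, were called higher at E17 vs E15.5 (log2 2.49 and 1.12), as was Ccn2, a secreted matrix protein gene (1.30). The value of Hcrtr2 rests on 2 and 1 counts in the E15.5 libraries and 11 and 11 in those of E17. Tmem163 (log2 1.12) and Drd1, the dopamine receptor gene (2.39), rose from E12.5 to P0. Drd1 had 1 and 2 counts in the E12.5 libraries and 5 and 18 in those of P0. The filter on low counts kept Kcnab1 only through stages from E15.5 on, Drd1 only through E17 and Hcrtr2 only through P0. The count of rises in the list is thus no support for a rise of these genes as a set. The call of Tmem163 was lost without E12.5 replicate 1 (log2 0.76). It was also lost with only the E12.5 and P0 libraries in the fit (1.17, limma-voom adjusted p = 0.0614). The F test did not call Tmem163 (adjusted p = 0.0720). Lpar1, a lysophosphatidic acid receptor gene, and Svil fell with Nxph4 at E15.5 vs E14 (log2 -1.5 and -2.09) and were lower at P0 than at E12.5 (-3.52 and -2.76). At E15.5 vs E14, 3 of the 12 genes were higher and 3 lower (16.5% and 19.6% of all genes), with a median of 0.06. Kcnab1, Drd1, Hcrtr2 and Ccn2, and above Rxrg, were named after their values were seen.

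**Figure D4:**
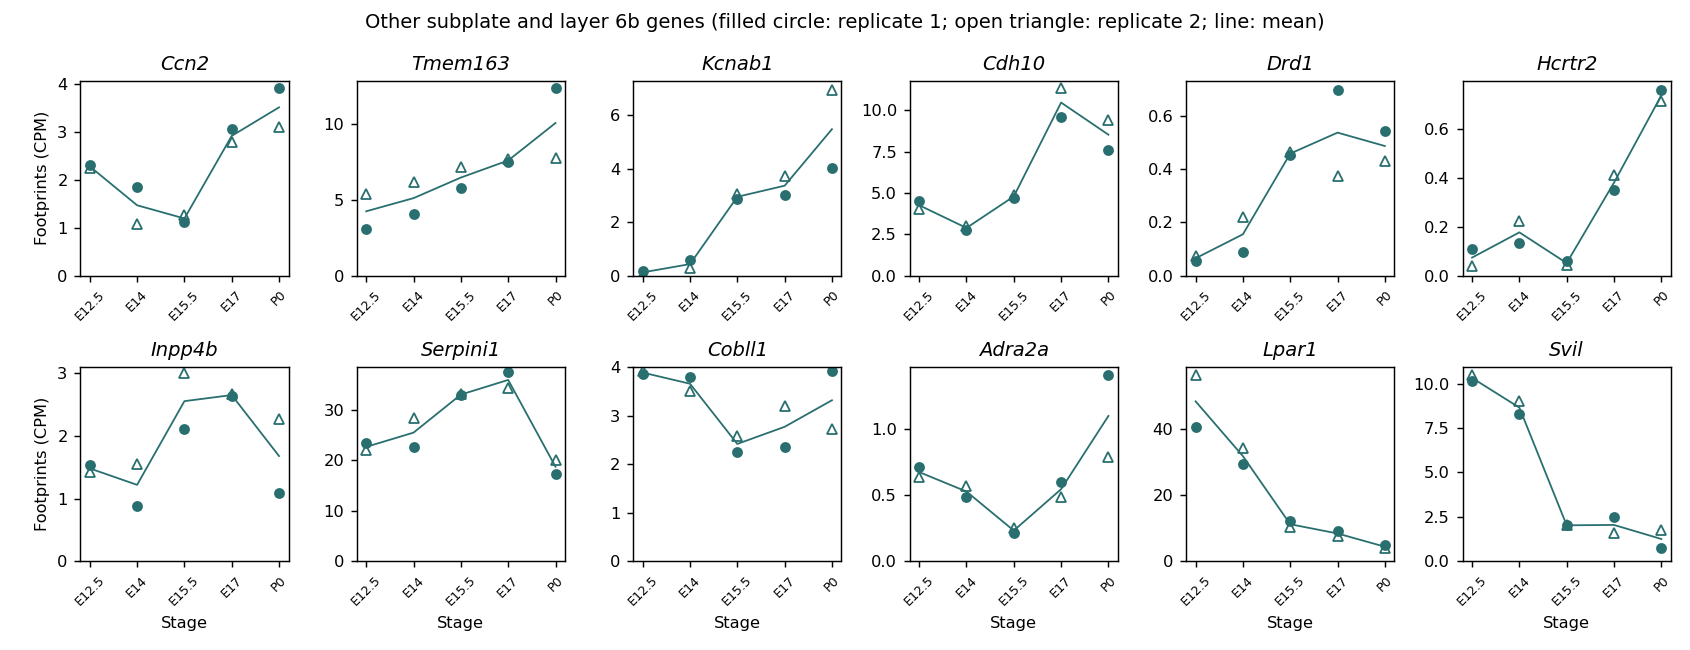
Footprint level in CPM (y axis, from 0, a separate scale for each gene) of 12 other subplate genes in each library by stage (x axis). Kcnab1 follows the early rise of Nr4a2 and Hs3st4, Hcrtr2 goes up late, and Lpar1 and Svil go down at E15.5 vs E14 as Nxph4 does.

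Of 10 genes of deep-layer projection neurons, the cortical neurons born soon after the subplate, 6 were higher and 1 lower at P0 than at E12.5. Of all genes, 30.1% were higher and 32% lower. The median of the list was 0.67, or 1.20 with total counts. At E15.5 vs E14, 4 were higher and 0 lower (16.5% and 19.6% of all genes). Ldb2 (log2 3.94), Crym (1.93) and Tle4 (1.61) rose most among the well-counted genes, and Sox5, a transcription factor gene, fell (-0.54). The value of Sox5 was -0.01 with total counts.

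The libraries also differed in markers of other cells at the steps at which the members moved, and the part of these cells in the results was not tested. At E15.5 vs E14, 7 of 8 progenitor genes and 6 of 6 meningeal genes were lower, as was Nxph4, and so were 5 of 5 tested choroid plexus genes. The summed progenitor level, much of it from the 1 gene that was higher, Fabp7, was 2158 to 2237 CPM at E14 and 2135 to 2293 at E15.5. The summed level of the meningeal genes went from 62.9 to 71.3 CPM at E14 to 2.53 to 2.89 at E15.5, with no gene at 0 in all libraries of a stage. That of the choroid plexus genes went from 1146 to 1152 CPM to 10.9 to 13.6. Of 8 red blood cell genes, 6 were lower and 0 higher at this step, with summed levels of 10040 to 11055 and 6905 to 7421 CPM. At the same step 7 of 8 neuronal genes were higher, with summed levels of 2931 to 2977 and 5774 to 5894 CPM. Of 9 tested ganglionic eminence genes, 6 were higher and 1 lower, with 35.97 to 42.1 and 122 to 127 CPM. Of all genes tested, 16.5% were called higher and 19.6% lower there. Nr4a2 also marks the claustrum, and 3 of 5 tested claustrum genes were called higher at this step, 1 lower, with Oprk1 at 0 counts throughout. Their summed level, nearly all of it Gng2, went from 1815 to 2044 CPM to 4203 to 4398. At P0 vs E17, 9.46% of all genes were called higher and 11.1% lower. Of 8 glial genes, 5 were higher, with summed levels of 85.0 to 96.0 and 134 to 172 CPM. Of the 8 red blood cell genes, 5 were lower and 1 higher, with 7253 to 7259 and 1439 to 1862 CPM. At that step 4 of 8 progenitor genes were lower and 0 higher, with summed levels of 2347 to 2472 and 1410 to 1951 CPM. Of the 8 neuronal genes, 4 were higher and 1 lower, with 5585 to 5826 and 6520 to 7083 CPM. Of 6 genes of Cajal-Retzius cells, the other early-born cortical neurons, 1 was higher and 2 lower at E15.5 vs E14, with summed levels of 42.4 to 43.1 and 41.6 to 43.5 CPM.

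**Figure D5:**
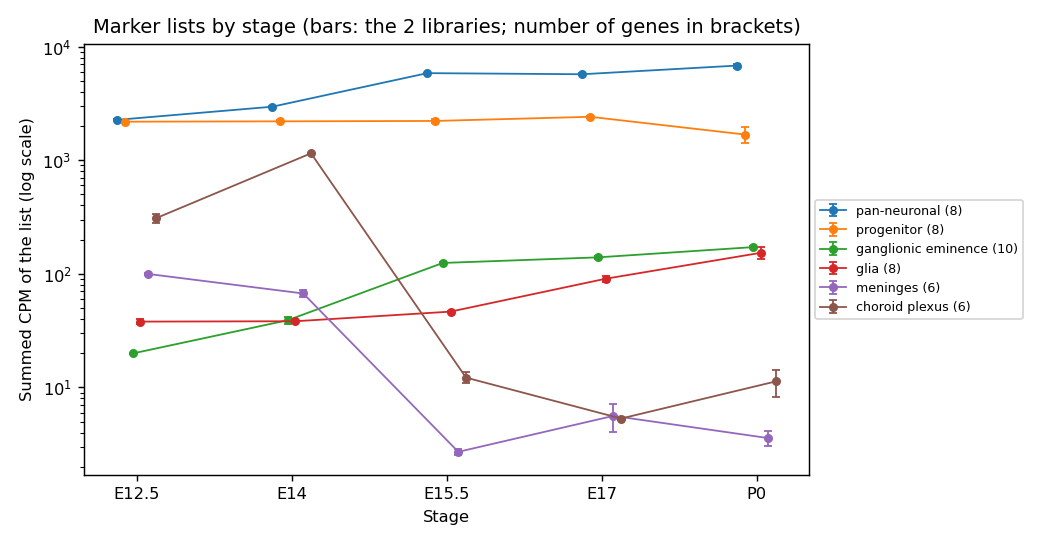
Summed CPM of the genes of 6 marker lists (y axis, log scale) by stage (x axis), where bars span the 2 libraries and points are their midpoint. Between E14 and E15.5 the meningeal and choroid plexus sums drop and the neuronal and ganglionic eminence sums go up.

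With libraries scaled by total counts alone, the median log2 fold change of all genes moved from -0.01 to 0.29 at E15.5 vs E14 and from -0.01 to 0.51 at P0 vs E12.5. The share of calls that were higher moved from 45.6% to 72.7% and from 48.5% to 72.0%. Under that scaling Nr4a2 changed by log2 fold changes of 2.51 and 3.33, Hs3st4 by 2.31 and 4.66 and Nxph4 by -1.25 and -2.78, and all of these were called.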

How the data were processed

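Neocortex of timed-pregnant wild-type CD-1 mice was profiled at 5 stages in 2 pools of brains each. The authors digested lysates with RNases T1 and A without cycloheximide, took 80S fractions, collapsed duplicate reads, removed contaminants with Bowtie 2 and aligned with STAR (2.7.0 per the submitters' notes), keeping reads that match several places. The deposited values are whole-number footprint counts per gene, not normalized. Of 22373 identifiers, 22274 matched a symbol. The study's methods align to protein-coding transcripts and the genome and name DeepShape-prime for abundances per transcript and tximport for length-corrected gene counts. Whether these whole numbers come from that route, and whether strand was used, is not given in the sources used here, so near-identical genes are uncertain. The depth is given with the results.

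Genes with at least 32 footprints over the 2 libraries of at least 1 stage were kept (13484). TMM scaling and limma-voom (limma 3.58.1, edgeR 4.0.16, R 4.3.3) were run with 1 coefficient per stage over all 10 libraries, tested two-sided for 7 contrasts and by a moderated F test, and tested on simulated data. Alternatives were other scalings, filters, tools (DESeq2 1.42.0, edgeR), weights, sample sets and the leaving out of each library. Intervals are exact at 95%.

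The members and lists were chosen with earlier results of these data known. Named outside the members were all paralogues, up to 3 called genes with the largest rise and fall from E12.5 to P0 per list (mean of at least 100 counts), and the 2 genes most like each member. Other exceptions are named as such or follow list counts. Sequences came from RefSeq.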

Additional observations from a re-analysis of the deposited data

How the results depend on the processing

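Of the counts of members called, 140 stayed within 1.5 times under the alternatives and 5 did not. With a mean count of 100 or more required, 2 members were called at P0 vs E12.5 and 2 by the F test, since Cplx3 and Hs3st4 fall below that filter. With sample quality weights 1 was called at E17 vs E15.5 (Cplx3, limma-voom adjusted p = 0.0259), and with only the 2 stages 0 at P0 vs E17. Leaving out 1 library at a time gave 0 to 1 called at E14 vs E12.5 (Hs3st4 without P0 replicate 2), 2 to 4 at E15.5 vs E14, 3 to 4 at E17 vs E12.5 and by the F test 3 to 4, and did not change the other counts. The E15.5 vs E14 count gained Cplx3 without E14 replicate 1 (log2 -4.48, limma-voom adjusted p = 0.0153), and at E17 vs E12.5 Cplx3 was called with total counts (0.0469) and without either E14 library (0.0195 and 0.0215). Directions changed for values that were not called: Hs3st4 at P0 vs E17 was 0.064 with DESeq2 and -0.47 to 0.53 when a library was left out (0.53 without P0 replicate 2), Nxph4 at E14 vs E12.5 ran from -0.030 (without E12.5 replicate 1) to 0.15, Cplx3 there from -0.036 (without E14 replicate 2) to 4.13, Nr4a2 at E17 vs E15.5 from -0.19 to 0.069 (without E17 replicate 1), and Hs3st1 at P0 vs E12.5 from -0.58 to 0.30 (without P0 replicate 2; it was called without P0 replicate 1, limma-voom adjusted p = 0.0232), and 0.25 with total counts. The medians of the heparan sulfate list (0.21 with total counts) and of the other subplate genes (-0.24 with a mean count of 100 or more) changed sign as well. The cause was not tested. The fit of only E15.5, E17 and P0 and the alternatives for the lists were chosen after seeing the data.

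With the replicate number as a block, no call of a member changed (Nr4a2 at E15.5 vs E14 was 2.22). The labels do not say whether same-numbered libraries share a preparation. Across genes, 3 of 10 pairs of stages had a correlation of deviations over 0.1 and 5 of 10 were over 0, from -0.635 to 0.255. The 3 pairs and the lowest all involved P0. Such correlations cannot settle whether a preparation was shared. Over all genes, 86 were called at E14 vs E12.5, against 4 with the block, 11 with only the 2 stages, 27 with no filter, 143 with total counts, 154 with mean counts of 100 or more, 399 with DESeq2 and 655 with sample quality weights. At E17 vs E15.5, 1219 were called, against 1 with only E15.5, E17 and P0, 773 with no filter, 3267 with only the 2 stages and 3717 with weights, and at P0 vs E17 2767, against 0, 698 with weights and 1441 with the 3 late stages. Depth limits Moxd1, and the early levels of Cplx3 and Hs3st4.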
